A study of Mus musculus with 4 samples.

Results

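The 10 genes described here make the protein parts of plasma lipoproteins in the liver: Apoa1, Apoa2, Apoa4, Apoa5, Apob, Apoc1, Apoc3, Apoe and Apom encode apolipoproteins, and Mttp encodes the protein that loads lipid onto one of them. They were chosen by symbol, as genes of lipoprotein assembly, from the 20642 gene symbols of the deposited table. All 10 are in the table, each with 1 transcript, and all 10 were among the 12705 genes counted as active, that is, with reads near the start and more than 4 normalized reads per kb of gene body on average. Transcription was measured by PRO-seq, which sequences the 3′ ends of RNA that engaged polymerases extend in isolated nuclei, so the values are of polymerases at work on a gene and not of stored mRNA. Liver nuclei came from C57BL6 mice on postnatal day 14. The WT group (2 libraries, WT1 and WT2) carried the wild-type Hdac3 alleles (+/+), and the Hdac3 KO group (2 libraries, KO1 and KO2) carried fl/fl or fl/− alleles, with the 2 genotypes not told apart by library. Both groups carried the Alb-Cre transgene, whose albumin promoter drives Cre in hepatocytes, so liver cells that do not make this Cre keep their floxed alleles. Nuclei of several mice were pooled for each library (20000000 nuclei a run-on), so the p-values below measure the spread between such pools and not between single mice. The SE and p-values are from limma unless another tool is named. There the spread of each gene was drawn toward a trend shared by all active genes. An SE is thus not the spread of a gene's own libraries alone.

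Lipoproteins carry triglyceride and cholesterol through the blood in a shell of phospholipid and apolipoproteins. In hepatocytes, apolipoprotein B is lipidated in the endoplasmic reticulum by the microsomal triglyceride transfer protein and leaves the cell as VLDL, whereas apolipoprotein A-I leaves with little lipid and gathers cholesterol into HDL. Smaller apolipoproteins move between particles and set how fast lipases and receptors clear them, and Hdac3, a histone deacetylase that works in the NCoR and SMRT corepressor complexes, is known for keeping lipid genes of the liver in check.

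The libraries held 16628518 to 26190040 reads on genes, the fewest in KO2. The promoter-proximal share of these reads was 10.3% and 9.38% in WT1 and WT2, and 13.6% and 17.0% in KO1 and KO2. Hdac3 itself had 665 and 648 normalized gene body reads in WT1 and WT2 and 609 and 582 in KO1 and KO2. Its log2 fold change was −0.14 ± 0.13 (SE) with an adjusted p of 0.413, but this value covers the whole gene body from 1 kb after the start, and where in it the floxed stretch lies is not given in the sources used here, so it checks no label.

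Gene body transcription of most of the 10 genes was lower in the KO livers. Apoa1, Apoa2, Apoa5, Apoc3 and Apom fell, Apoa4 rose, and Apob, Apoc1, Apoe and Mttp did not pass both thresholds, which were an adjusted p under 0.05 in limma and an absolute log2 fold change over 0.6. Thus 5 of 10 genes were called down, beside 11.4% of all 12705 active genes, and 1 of 10 was called up, beside 10.4%. The median log2 fold change was −0.64 over the 10 genes and −0.09 over all active genes. With no threshold on the fold change, 7 of the 10 were lower and 1 was higher, beside 2807 lower (22.1%) and 2161 higher of the 12705 active genes. When the filter on activity was dropped and 20642 genes were tested, only Apoa1 and Apoc3 remained called, both down. In that fit 2.85% of all genes were called down and 1.97% up.

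**Figure D1:**
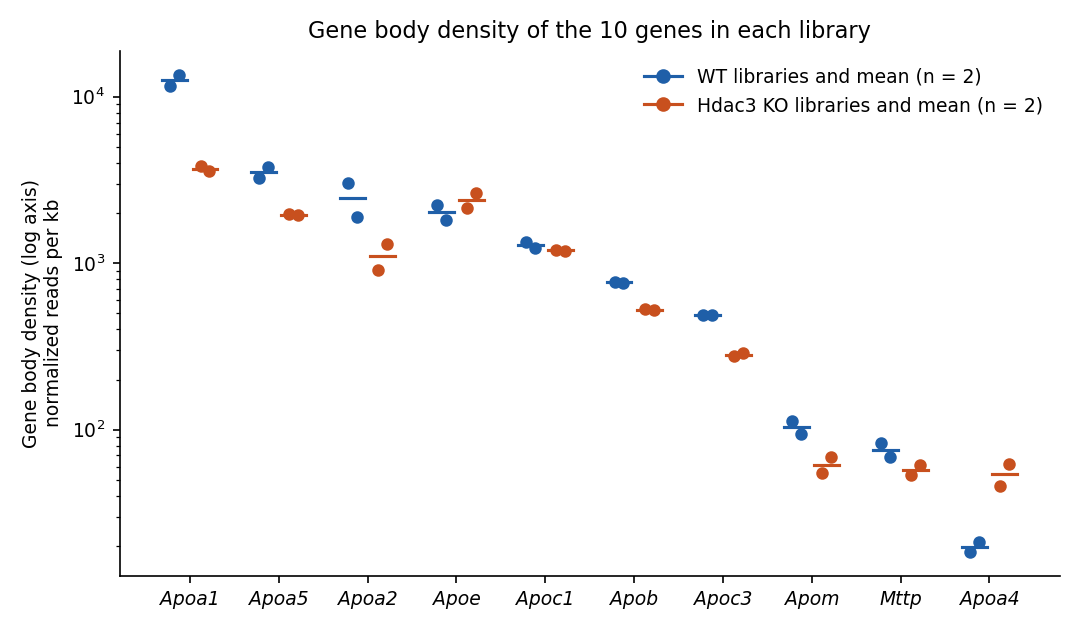
Gene body density in normalized reads per kb of gene body window, on a log axis, for each of the 10 genes, ordered by the WT mean; points are the 2 WT and the 2 Hdac3 KO libraries, and lines are group means. Apoa1 is at the top in both groups and Apoa4, at the bottom, is the gene whose KO points lie well above its WT points.

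Among the HDL apolipoproteins, Apoa1, which forms the scaffold of HDL and activates LCAT, had the largest fall of the 10 genes. It had 9725 and 11363 normalized gene body reads in WT1 and WT2, and 3192 and 3002 in KO1 and KO2. Both KO libraries lay far below both WT libraries, the latter differing from each other by 0.23 on the log2 scale. The log2 fold change was −1.76 ± 0.11 (SE, 2 libraries a group), which left 29.5% of the WT level, with an adjusted p of 3.94e-11. Only 1.13% of active genes had a lower log2 fold change.

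Apoa2, the second main HDL protein, had 983 and 615 normalized gene body reads in WT1 and WT2, and 298 and 425 in KO1 and KO2. The groups did not overlap, but the libraries within each group lay far apart, by 0.68 in WT and 0.51 in KO on the log2 scale. The log2 fold change was −1.13 ± 0.18 with an adjusted p of 2.84e-05 in limma, and it ran from −1.46 to −0.79 when 1 library was left out. DESeq2 gave a larger SE, 0.41, with an adjusted p of 0.0193. The gene body window of the transcript counted here is 326 bp. Tomm40l overlaps some part of the annotated span of Apoa2 (4816 bp) on the other strand. How much of the span it covers, and whether it reaches this window, was not tested.

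Apom, which carries sphingosine 1-phosphate on HDL, had 197 and 166 normalized gene body reads in the WT libraries and 96.5 and 120 in KO1 and KO2. The groups did not overlap, and the log2 fold change was −0.74 ± 0.20 with an adjusted p of 0.00456. These values rest on 79 to 172 reads a library. Without KO1 the log2 fold change was −0.59 and the adjusted p 0.107, so this call depends on that library.

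Apoa4, a lipid-binding protein of HDL and chylomicrons that is made mainly in the intestine, went the other way. It had 29.8 and 34.0 normalized gene body reads in WT1 and WT2, and 74.3 and 100.2 in KO1 and KO2. Both KO libraries were above both WT libraries, and the log2 fold change was 1.41 ± 0.27, or 2.66-fold, with an adjusted p of 0.000219. It rests on few reads, 26 and 34 in WT and 70 and 66 in KO, and 2 GENCODE genes, Gm10680 and Gm47528, overlap Apoa4 on the other strand. The sources used here place the promoter-proximal windows along the coding strand but do not state whether gene body reads were counted by strand. If they were not, a gene body value would hold reads of both strands where such an overlap reaches the gene body window.

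Of the VLDL pair, Apob, the backbone of VLDL and LDL, had 29317 and 29154 normalized gene body reads in WT1 and WT2 and 20286 and 19929 in KO1 and KO2. The libraries within each group were close together and the groups did not overlap. The log2 fold change of −0.54 ± 0.12 had an adjusted p of 0.000698 but was under the fold threshold, so Apob was not called. Mttp, which transfers triglyceride to nascent apolipoprotein B, had 4346 and 3577 in WT and 2815 and 3242 in KO. Its groups did not overlap either, and its log2 fold change of −0.38 ± 0.12 (adjusted p = 0.0115) was under the fold threshold as well. This adjusted p was lost under median-of-ratios scaling (−0.30, adjusted p = 0.109), without WT1 (−0.24, 0.171) and without KO1 (−0.28, 0.192). Gm43691 overlaps Mttp on the other strand.

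The remaining apolipoproteins bear on the clearance of triglyceride and remnants. Apoa5, which promotes lipolysis by lipoprotein lipase, had 7473 and 8797 normalized gene body reads in WT1 and WT2 and 4554 and 4506 in KO1 and KO2. The KO libraries were nearly equal and below both WT libraries, with a log2 fold change of −0.84 ± 0.11 and an adjusted p of 1.74e-06. Gm47544 overlaps Apoa5 on the other strand. Apoc3, which slows lipolysis and remnant uptake, had 607 and 608 in WT and 344 and 360 in KO, with a log2 fold change of −0.79 ± 0.14 and an adjusted p of 6.90e-05. Thus a gene that promotes lipolysis and one that slows it were both called down.

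Apoc1 and Apoe lie next to each other, and neither passed the test. Apoc1, which inhibits lipoprotein uptake and lipases, had 2925 and 2684 normalized gene body reads in WT and 2602 and 2593 in KO. The log2 fold change was −0.11 ± 0.11 with an adjusted p of 0.455, although the groups just missed overlapping. Apoe, the ligand by which receptors take up remnants, had 4316 and 3514 in WT and 4103 and 5065 in KO. These groups overlapped, and the log2 fold change was 0.23 ± 0.12 with an adjusted p of 0.151.

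Markers of liver cell types moved between the same libraries. Of 8 hepatocyte markers 5 were called down in gene bodies, with a median log2 fold change of −1.05 beside −0.64 for the 10 genes. The summed gene body reads of these markers were 352519 to 371329 in WT and 195080 to 195154 in KO. All 7 stellate cell markers were called up, with sums of 9220 to 10408 in WT and 18830 to 20581 in KO, and 5 of 6 endothelial markers were called up, with sums of 50603 to 54562 and 86081 to 96767. None of the 8 Kupffer cell and macrophage markers in the table was called in gene bodies by limma, edgeR or DESeq2, with Marco alone higher at an unadjusted p under 0.05 in limma (sums of 14341 to 15905 in WT and 15702 to 18229 in KO), 4 of 5 erythroid markers were called down (768 to 954 and 296 to 341), and 1 of the 3 active cholangiocyte markers, Sox9, was called down (158 to 208 and 152 to 182). Apoe is also made in macrophages, and Apoa1, Apoa4, Apob and Mttp in enterocytes. Of 6 enterocyte markers, Vil1, Cdx1, Cdx2 and Alpi were below the activity filter, and neither Fabp2 nor Lgals4 was called by limma, edgeR or DESeq2, with Fabp2 lower at an unadjusted p under 0.05 (sums of 552 to 555 in WT and 449 to 542 in KO). The part of these shifts in the changes of the 10 genes was not tested. In whole liver, fewer nuclei of a cell type and less transcription per nucleus cannot be told apart.

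Per length, the 10 genes spanned a wide range of WT levels. Apoa1 had 12597 ± 1384 (SD, n = 2) normalized gene body reads per kb, which ranked 2 among active genes in both WT libraries, and Apoa5 had 3519 ± 405. Apoa2 with 2451 ± 799 and Apoe with 2036 ± 295 did not separate from each other, and Apoc1 (1288), Apob (766), Apoc3 (487), Apom (103), Mttp (75.4) and Apoa4 (19.8) followed, each neighbour lying outside the other's range. In KO, Apoa1 still had the highest density of the 10 (3700 ± 161) and ranked 4 among active genes in both libraries. Apoe (2384 ± 354) came next in KO, ahead of Apoa5 (1959 ± 14.6), and Apoc1 (1193) lay above the mean of Apoa2 (1109), which ranged from 914 to 1304. Apom (61.6), Mttp (57.6) and Apoa4 (54.0) had overlapping ranges in KO. The 10 genes together took 0.256% and 0.255% of gene body signal in WT1 and WT2 and 0.174% and 0.188% in KO1 and KO2, and Apob, by its length, held 48.2% to 52.9% of it.

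Apoa1, Apoc3, Apoa4 and Apoa5 lie within 43292 bp on chromosome 9 and did not change together. In mm10 coordinates, Apoa1 is at chr9:46228630-46230469 on the plus strand, Apoc3 at chr9:46233050-46235636 on the minus strand, Apoa4 at chr9:46240844-46243458 and Apoa5 at chr9:46268608-46271921, both on the plus strand. Between the fall of Apoc3 and that of Apoa5, Apoa4 rose. The density of Apoa1 was 629 and 645 times that of Apoa4 in WT1 and WT2 and 82.9 and 57.8 times in KO1 and KO2. Sik3, on the Apoa1 side, had a log2 fold change of −0.38 (adjusted p = 0.00838, under the fold threshold), and Zfp259, next to Apoa5, was called down with −0.71 ± 0.11 (adjusted p = 2.01e-05). Both are on the plus strand, with Sik3 upstream of Apoa1 and Zfp259 downstream of Apoa5. The paper states that polymerases run on past annotated gene ends. Reads of an upstream gene may thus be in the value of the next one, which was not tested.

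**Figure D2:**
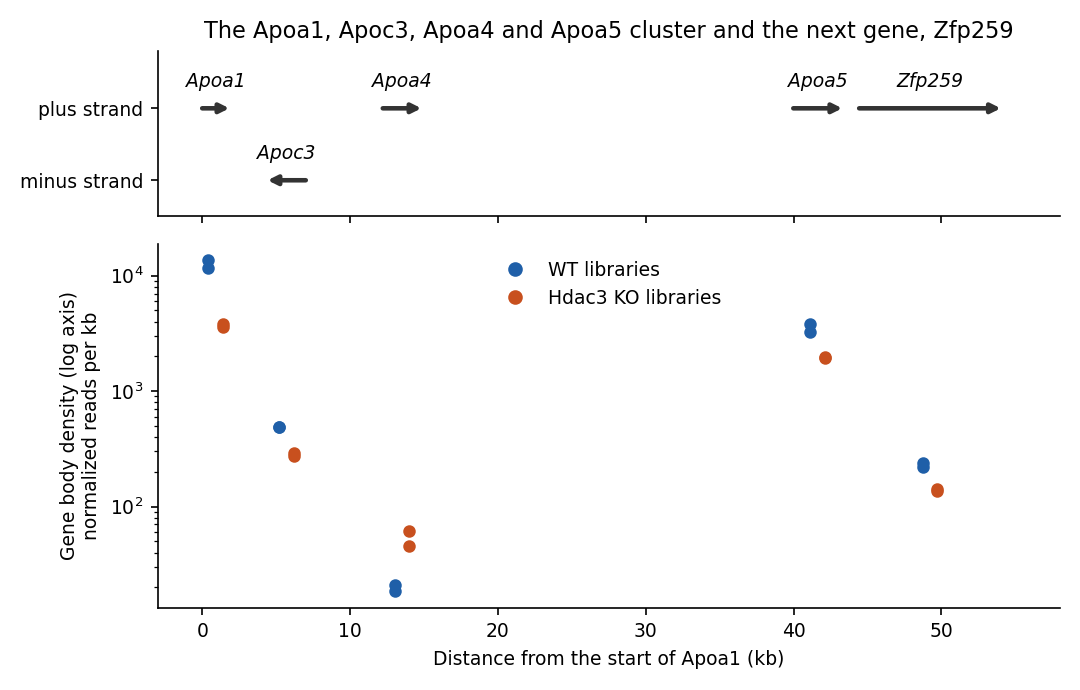
Upper panel, position and direction of Apoa1, Apoc3, Apoa4, Apoa5 and Zfp259 by distance in kb from the start of Apoa1; lower panel, gene body density of each gene in normalized reads per kb on a log axis, with 1 point per library (WT points left, KO points right). Apoa4 alone of the 5 genes has its KO points above its WT points.

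Apoe and Apoc1 are the other pair, at chr7:19696244-19701310 and chr7:19689480-19692659 on the minus strand, 3584 bp apart. Apoc4 and Apoc2, further along, code for an apolipoprotein of VLDL and for the activator of lipoprotein lipase. Apoc4 had a log2 fold change of −0.57 (adjusted p = 0.00122, under the fold threshold), and Apoc2 was called down with −0.81 ± 0.12 (adjusted p = 5.67e-06). Tomm40, on the other side of Apoe, was not called (−0.23, adjusted p = 0.128). The density of Apoe over that of Apoc1 was 1.67 and 1.48 in WT1 and WT2 and 1.79 and 2.21 in KO1 and KO2. Apoc1, Apoc4 and Apoc2 lie downstream of Apoe on the same strand. Reads that run on past the end of Apoe may be in their values, which was not tested. The other genes stand alone, with Apoa2 at chr1:171221564-171226379, Apob at chr12:7977629-8016839, Apom at chr17:35128997-35131801 (minus strand) and Mttp at chr3:138089855-138143418 (minus strand).

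Polymerase near the start of these genes was counted separately, in the 50 bp window with the most reads around each start. The RefSeq promoter table (GRCm38.p6, 250 bases before to 50 after the start) matched 8 of the 10 genes, all but Apoc1 and Apoc3. Shown here are the promoters of Apoa1 and Apoa4, the gene with the largest fall and the one that rose, and of Apoa2 and Apoa5, which were called down in both regions. Capitals mark matches on either strand to the nuclear receptor half-sites AGGTCA and GGGTCA, the TATA box TATAAA, the HNF1 half-site GTTAAT, the CCAAT box CCAAT and the GC box GGGCGG. The windows are chr9:46228380-46228679 for Apoa1, chr9:46240594-46240893 for Apoa4, chr1:171224804-171225103 for Apoa2 and chr9:46268358-46268657 for Apoa5, all on the plus strand.
Apoa1: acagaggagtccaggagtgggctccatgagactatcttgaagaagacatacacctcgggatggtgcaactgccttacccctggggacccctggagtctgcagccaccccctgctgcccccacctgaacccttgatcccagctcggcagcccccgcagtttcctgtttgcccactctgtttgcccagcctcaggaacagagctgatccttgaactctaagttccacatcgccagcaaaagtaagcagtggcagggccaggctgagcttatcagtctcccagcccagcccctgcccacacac
Apoa4: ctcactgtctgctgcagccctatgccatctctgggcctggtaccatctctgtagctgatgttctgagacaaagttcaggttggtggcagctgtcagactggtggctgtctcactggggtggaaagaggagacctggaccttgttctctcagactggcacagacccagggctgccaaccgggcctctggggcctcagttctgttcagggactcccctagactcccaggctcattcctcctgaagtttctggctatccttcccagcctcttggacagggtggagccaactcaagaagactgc
Apoa2: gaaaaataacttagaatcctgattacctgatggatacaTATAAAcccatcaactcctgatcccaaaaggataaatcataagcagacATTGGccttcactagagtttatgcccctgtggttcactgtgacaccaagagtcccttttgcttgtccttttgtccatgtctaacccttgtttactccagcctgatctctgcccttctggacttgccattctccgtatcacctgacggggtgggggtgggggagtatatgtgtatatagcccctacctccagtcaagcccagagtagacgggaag
Apoa5: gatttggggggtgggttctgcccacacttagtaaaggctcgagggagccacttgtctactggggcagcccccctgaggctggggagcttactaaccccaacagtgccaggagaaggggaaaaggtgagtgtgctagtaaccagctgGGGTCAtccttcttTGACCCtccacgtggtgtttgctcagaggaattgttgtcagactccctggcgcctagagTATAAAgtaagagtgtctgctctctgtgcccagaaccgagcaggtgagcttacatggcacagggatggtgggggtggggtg

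None of these letters was found in the Apoa1 and Apoa4 windows. Apoa5 held 2 GGGTCA sites in opposite orientation, from −104 to −99 and from −90 to −85 relative to the start, and TATAAA from −31 to −26, whereas Apoa2 held TATAAA from −212 to −207 and CCAAT on the other strand from −164 to −160. Of the windows not printed, Apom held 2 GGGTCA sites, Apoe 1 GGGTCA site, Apob 1 TATAAA and Mttp 1 GGGCGG. Among 32851 mouse promoters of this table, 13.7% held GGGTCA, 16.3% AGGTCA, 13.6% TATAAA, 7.10% GTTAAT, 37.4% CCAAT and 35.7% GGGCGG. A match is a run of letters and not evidence that a factor was bound.

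In the promoter-proximal windows, Apoa5 and Apoa2 fell and none of the 10 genes rose, against a background that went mostly the other way. The 2 genes called down of 10 stand beside 2.2% of active genes, and the 0 called up beside 25.8%. Neither edgeR nor DESeq2 on the recovered reads called any of the 10 up, and at an unadjusted p under 0.05 Apoe and Mttp were higher in limma. The median log2 fold change was −0.29 over the 10 genes and 0.56 over all active genes. Of the 8 hepatocyte markers, 5 were called down and 0 up in this region, with a median of −0.84. These values depend on the scaling: with median-of-ratios factors taken within this region the median of all active genes moved to −0.00129, 634 active genes were called up and 942 down in place of 3282 and 280, and 6 of the 10 genes were called down.

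Apoa5 had 1090 and 1380 normalized promoter-proximal reads in WT1 and WT2 and 538 and 499.5 in KO1 and KO2. Both KO values were below both WT values, with a log2 fold change of −1.24 ± 0.29, or −1.80 relative to the median of all active genes, and an adjusted p of 0.000348. The call was lost without WT2 (adjusted p = 0.132) and without KO2 (0.0533). Apoa2 had 2168 and 1815 in WT and 996 and 1228 in KO, again with no overlap. Its log2 fold change was −0.84 ± 0.28 with an adjusted p of 0.0146, and this call was lost when any 1 library was left out, with adjusted p from 0.0820 to 0.250.

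Apoa1 had 2576 and 2024 normalized promoter-proximal reads in WT and 1301 and 1719 in KO. The groups did not overlap, but the log2 fold change of −0.61 ± 0.27 had an adjusted p of 0.0739, and it was smaller in size than the gene body value of −1.76. Apoc3 had 107 and 113 in WT and 78.5 and 80.5 in KO (−0.46 ± 0.35, adjusted p = 0.292). Apob, with 5879 and 3373 in WT and 2786 and 3952 in KO, and Apom, with 470 and 325 in WT and 271 and 454 in KO, both overlapped between groups and had adjusted p of 0.200 and 0.690. Under median-of-ratios scaling within the region, Apoa1, Apob, Apoc3 and Apom were also called down.

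Mttp, which was not called in either region, had 231 and 237 normalized promoter-proximal reads in WT1 and WT2 and 377 and 377 in KO1 and KO2, so that the groups were far apart compared with their spread. The log2 fold change was 0.69 ± 0.31 with an adjusted p of 0.0757, and relative to the median of all active genes it was 0.13. Under within-region scaling the value was 0.12 (adjusted p = 0.793). Apoe had 1122 and 748 in WT and 1296 and 1418 in KO, with no overlap (0.56 ± 0.28, adjusted p = 0.105), and this value was −0.01 under the within-region scaling. Apoa4, with 25.2 and 10 in WT and 21.2 and 30.4 in KO, and Apoc1, with 507 and 280 in WT and 390 and 314 in KO, overlapped between groups. The rise of Apoa4 in the gene body thus had no promoter-proximal call beside it (0.64 ± 0.43, adjusted p = 0.236), from windows that held 10 to 22 reads.

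**Figure D3:**
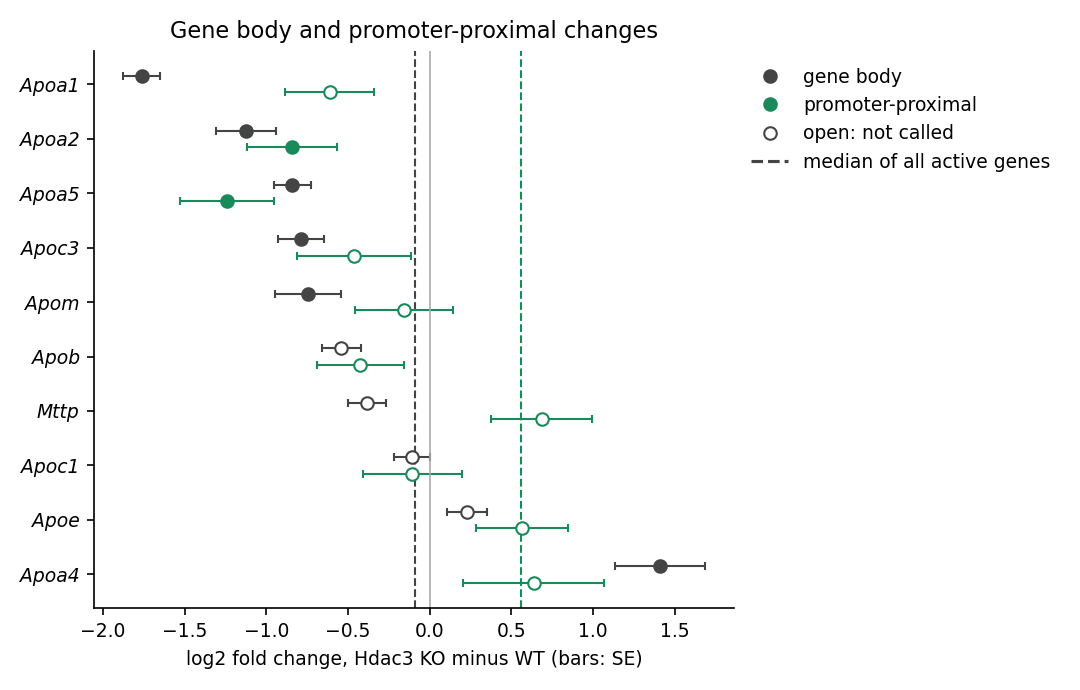
Log2 fold change, Hdac3 KO minus WT, with its SE, of each gene in the gene body (dark) and in the promoter-proximal window (green); filled points passed both thresholds and dashed lines are the medians of all active genes in each region. Apoa2 and Apoa5 are filled in both regions, and Mttp has its points on opposite sides of 0.

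The pausing index, the promoter-proximal density over the gene body density per bp, puts both regions in 1 measure. Mttp was the only one of the 10 genes called, with an index of 56.0 and 69.9 in WT1 and WT2 and 141 and 122 in KO1 and KO2. Both KO values were above both WT values, and the log2 fold change was 1.07 ± 0.39 with an adjusted p of 0.0493. This 1 of 10 stands beside 12.4% of active genes called up. The call was lost under within-region scaling (0.42, adjusted p = 0.546), where 0.0472% of active genes were called up. It was also lost without WT1, WT2 or KO2, in fits with 1 library in a group. When 1 library was left out, the log2 fold change of Mttp ran from 0.91 to 1.23. The median of all active genes then ran from 0.38 (without KO2) to 0.85 (without KO1).

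Apoa1 had a pausing index of 4.44 and 2.98 in WT and 6.82 and 9.59 in KO, with no overlap (1.15 ± 0.48, adjusted p = 0.0770). No gene of the 10 was called down, beside 0.519% of active genes, and none was lower at an unadjusted p under 0.05 in limma, the only tool run on this measure. The lowest value was that of Apoa4 (−0.77 ± 0.45, adjusted p = 0.191), whose index was 27.5 and 10.2 in WT and 9.54 and 10.01 in KO. The values of the genes not yet named ran from −0.40 (Apoa5) to 0.59 (Apom), with adjusted p from 0.253 to 0.995. The median log2 fold change of the index was 0.30 over the 10 genes and 0.61 over all active genes. Under within-region scaling the sign turned for Apoa2, Apob, Apoc1, Apoc3, Apoe and Apom, none of which was called under either scaling.

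Other genes of lipoprotein metabolism were counted in 5 lists of 97 genes, of which 90 were active. In gene bodies 34 of the 90 were called down (37.8%) and 12 up (13.3%), beside 11.4% and 10.4% of all active genes. Of 12 active other apolipoproteins, 6 fell and 3 rose, with a median log2 fold change of −0.69. Apof had 973 and 1066 normalized gene body reads in WT and 300.2 and 282 in KO (−1.80 ± 0.14, adjusted p = 4.06e-10). Apoh, which binds phospholipid, had 4862 and 4298 in WT and 1551 and 1585 in KO (−1.54 ± 0.11, adjusted p = 2.13e-10). Apol9a (1.48 ± 0.24) and Apol9b (1.22 ± 0.19) rose, but they are near-identical copies. The authors dropped reads of low mapping quality, which would take out reads that fit both copies, so their single values are uncertain.

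Of 25 active genes of VLDL assembly and secretion, 7 fell, 1 rose and 17 were not called, with a median of −0.32. Dgat2, which makes the triglyceride for VLDL, had 13142 and 13183 normalized gene body reads in WT1 and WT2 and 5066 and 6184 in KO1 and KO2 (−1.23 ± 0.11, adjusted p = 1.03e-08). Aadac, a lipase of the endoplasmic reticulum, had 506 and 464 in WT and 161 and 176 in KO (−1.52 ± 0.16, adjusted p = 5.53e-08). Ces1g, a carboxylesterase, was the 1 gene that rose, from 333 and 236 to 925 and 1319 (1.98 ± 0.17, adjusted p = 2.94e-09). It belongs to a family of close paralogs, and reads that fit several of them may have been dropped. The COPII coat genes Sec24a, Sec24b, Sec24c and Sec24d, which package cargo at the endoplasmic reticulum, were not called, with log2 fold changes from −0.32 to 0.15.

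Of 12 active genes of lipolysis and HDL remodelling in plasma, 4 fell and 2 rose, with a median of −0.17. Lcat, which esterifies the cholesterol of HDL with apolipoprotein A-I as its activator, had 929 and 904 normalized gene body reads in WT and 374 and 422 in KO (−1.20 ± 0.13, adjusted p = 1.35e-07). Lpl, lipoprotein lipase, fell as well (−0.82 ± 0.12, adjusted p = 6.66e-06). Abcg1, a cholesterol exporter, rose from 6112 and 6180 to 9671 and 9448 (0.64 ± 0.11, adjusted p = 3.62e-05), and Gpihbp1, which anchors lipoprotein lipase on endothelial cells, rose from 48.2 and 60.0 to 91.2 and 86.5 (0.71 ± 0.25, adjusted p = 0.0239), a call lost without WT1 (adjusted p = 0.128), KO1 (0.145) or KO2 (0.114) and in DESeq2 (0.126).

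Of 14 active lipoprotein receptor genes, 3 fell, 3 rose and 8 were not called, with a median of −0.11. Lsr, a receptor for triglyceride-rich particles, had 2383 and 2439 normalized gene body reads in WT and 1067 and 1143 in KO (−1.13 ± 0.11, adjusted p = 2.94e-08), and Scarb1, the HDL receptor, fell by 0.66 on the log2 scale (SE 0.12, adjusted p = 9.92e-05) but by only 0.58 under within-region scaling and 0.49 without WT1, both under the fold threshold. Vldlr, a receptor for VLDL, rose (0.79 ± 0.17, adjusted p = 0.000748), a call lost without WT2 (0.56) or KO2 (0.58), and so did Stab2 (0.79 ± 0.13, adjusted p = 4.33e-05), a scavenger receptor that is also one of the endothelial markers above.

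Regulators of apolipoprotein genes had the lowest median of the 5 lists, −0.79, with 14 of 27 down, 3 up and 10 not called. Hnf4a, a nuclear receptor that binds apolipoprotein promoters and is also one of the hepatocyte markers above, had 17104 and 17557 normalized gene body reads in WT1 and WT2 and 5615 and 6374 in KO1 and KO2 (−1.53 ± 0.11, adjusted p = 2.61e-10). Ppargc1a, a coactivator of nuclear receptors, had 7414 and 7199 in WT and 1770 and 1351 in KO (−2.24 ± 0.12, adjusted p = 3.73e-12). Nr1d1, a repressor of the circadian clock, rose (0.83 ± 0.14, adjusted p = 5.85e-05), as did Nr2f1, an orphan nuclear receptor (0.81 ± 0.25, adjusted p = 0.0125). Nr1d1 was under the fold threshold without WT2 (0.57), and the call of Nr2f1 was lost without WT1 (adjusted p = 0.0701), KO1 (0.120) or KO2 (0.0745) and in DESeq2 (0.0823).

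**Figure D4:**
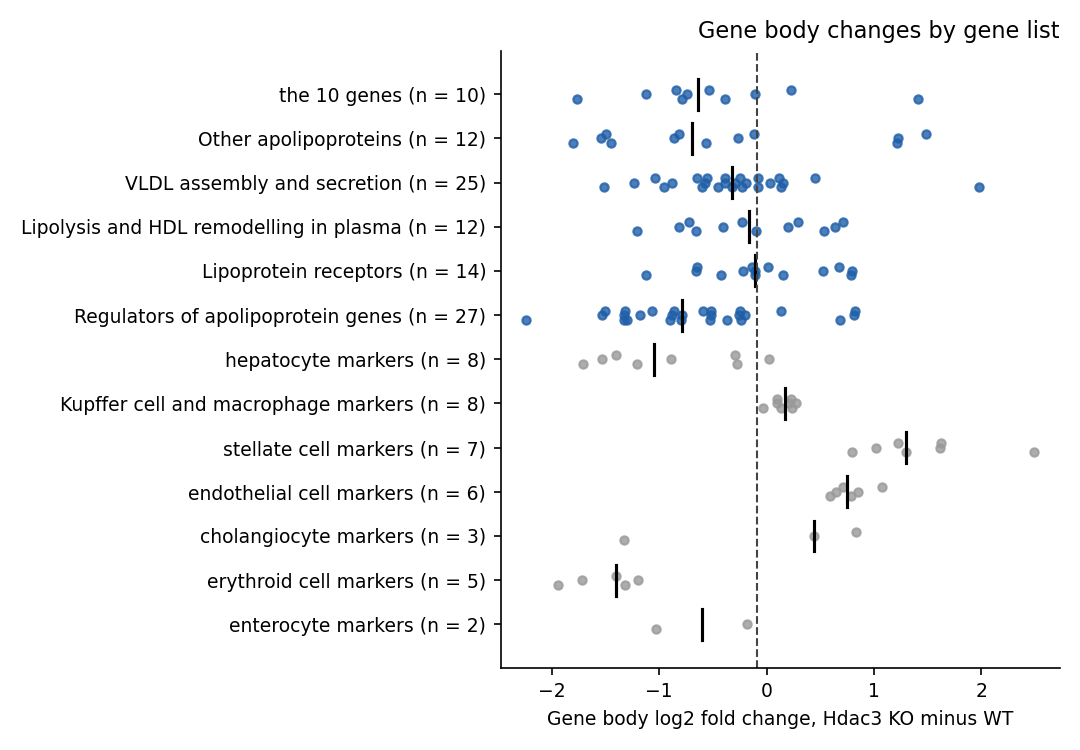
Gene body log2 fold change, Hdac3 KO minus WT, of each active gene in the 10 genes, the 5 lists of lipoprotein metabolism (blue) and the cell type marker lists (grey), with black lines at list medians and a dashed line at the median of all active genes (−0.09). The medians of the 10 genes (−0.64) and of all 5 lists, lowest in the regulators (−0.79), lie to the left of the dashed line. So do the medians of the hepatocyte (−1.05), erythroid (−1.40) and enterocyte (−0.60) markers. The medians of the Kupffer cell (0.17) and cholangiocyte (0.44) markers and all stellate and endothelial markers lie to its right.

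In the promoter-proximal windows the same 90 genes had 16 called up (17.8%) and 9 down (10%), beside 25.8% and 2.2% of all active genes. With median-of-ratios factors taken within this region the split turned round, to 7 up and 27 down, beside 4.99% up and 7.41% down of all active genes. The calls also dropped when any 1 library was left out, in fits with 1 library in a group. Calls over all active genes dropped as well without WT1, WT2 or KO2. In the main fit Hnf4a and Ppargc1a were called down in these windows as well, with log2 fold changes of −1.20 and −1.26. Hnf4a had 625 and 527 normalized promoter-proximal reads in WT and 246 and 252 in KO. Of the genes of VLDL assembly, Aadac and Pla2g12b were called down and Ces1g and Sec24b up in this region.

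The deposited list of 2282 intergenic enhancers, called by the authors on reads pooled over the libraries, gives positions but no values per library. Apob was the closest gene of 2 of them and no other of the 10 genes was the closest gene of any. The enhancer nearer to Apob, chr12:7947830-7951234, is 3404 bp long and ends 26443 bp before the start of Apob. The farther one, chr12:7862220-7921398, is 59178 bp long, ends 56279 bp before it and overlaps an enhancer of the FANTOM5 atlas in the authors' list. The paper cautions that enhancers are hard to tell from unannotated gene starts, above all where the transcript is long. Whether this holds for the farther one was not tested. The listed enhancer nearest to the chromosome 9 cluster, chr9:46324424-46329753, has Bud13 as its closest gene and lies 55814 bp from Apoa5 and 95791 bp from Apoa1. The authors left out stretches close to any RefSeq gene when they called enhancers, so most sequence within the gene clusters was not open to this list. By contacts in the 4DGenome database, 8 of the 10 genes, all but Apoa4 and Apom, were linked to a listed enhancer, but only Apoa1, Apoa5, Apob and Apoc3 to one on their own chromosome.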

How the data were processed

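Liver PRO-seq libraries of WT and Hdac3 KO mice were compared from the deposited files. The authors trimmed reads with cutadapt, aligned them to mm10 with Bowtie2, dropped poorly mapped reads and used NRSA to count the rest in promoter-proximal windows (50 bp) and gene bodies (from 1 kb after the start). The deposited values of WT2 are counts, since its factor is 1. The deposited values of the other libraries are normalized signal, the counts times 1 factor a library (1.15 in WT1, 1.06 in KO1, 1.52 in KO2), and density columns are signal per bp by the authors. Dividing by the factors gave whole reads within 0.001 for 100% of 41640 values a library. The deposited enhancer list holds positions and distances from pooled reads.

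Where a symbol had several transcripts, that with most promoter-proximal signal was used. Log2(normalized value + 1) was fitted in R 4.3.3 by limma 3.58.1 without a block (eBayes with a mean trend), fold changes are KO minus WT on that scale, and p-values were adjusted by Benjamini-Hochberg over the 12705 active genes. This table is not raw counts throughout, so edgeR 4.0.16 and DESeq2 1.42.0 on the recovered reads were alternatives. The steps were tested on simulated data. From each list of lipoprotein genes, up to 2 rises and 2 falls largest in gene body log2 fold change were named, among called genes with groups that did not overlap and a mean of at least 50 reads, besides a few named after their values were seen (Apoc2, Apoc4, the Sec24 genes, Pla2g12b, the cluster neighbours). The 10 genes and all lists were chosen with earlier results of these data known. Alternatives were other scalings, pseudocounts of 0.1 and 10, filters, transcripts, a replicate block and leaving out each library. The number of 2 libraries a group limits the precision, and reads without molecular identifiers are not independent molecules.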

Additional observations from a re-analysis of the deposited data

How the results depend on the processing

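In gene bodies, 6 of the 10 genes were called under every scaling, pseudocount, transcript choice and tool tried, 5 to 6 when a library was left out, 8 with no threshold on the fold change and 2 with no filter on activity, where 20642 genes were tested. The count of 46 pathway genes called in gene bodies stayed within 1.5 times in the settings tried for it. Dropping the filter on activity was not among these. With no filter, 2.85% of the 20642 genes were called down in gene bodies and 1.97% up. In promoter-proximal windows the count of 2 became 6 under median-of-ratios or TMM scaling within the region and 1 under gene body scaling of both regions. With no filter it became 0, as did the count over all 20642 genes. It also fell when any 1 library was left out, in fits with 1 library in a group. In those fits the median log2 fold change of all active genes ran from 0.37 (without KO2) to 0.74 (without KO1). The 25 pathway genes called there became 6 to 20 when a library was left out, and 34 under median-of-ratios scaling within the region, where 16 up and 9 down turned to 7 up and 27 down. For the pausing index the count of 1 became 0 under median-of-ratios or TMM scaling, which called 0.0472% and 0.0630% of active genes up. It also became 0 with a pseudocount of 0.1 (8.91% called up) and with no filter, where 0 of all 20642 genes were called. The count was 2 with a pseudocount of 10, and it changed when any 1 library was left out. With a pseudocount of 10, 18.4% of all active genes were called up for the pausing index, beside 12.4% in the main fit. Apart from the scalings, which set the level of the region by construction, and the tests over more genes or fewer libraries, the cause of these changes in the counts was not tested.

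With the replicate number as a block, the gene body calls of the 10 genes stayed at 6, the promoter-proximal calls became 1, the pausing index calls 0 and the promoter-proximal pathway calls 14. Same-numbered libraries share only a number: the correlation of their deviations was 0.02 in gene bodies, −0.11 in promoter-proximal windows and −0.07 for the pausing index. A crossed pairing, chosen after seeing the data, gave 6, 4 and 2 calls among the 10 genes. Of all active genes, the replicate block called 13.9% up and 1.39% down in promoter-proximal windows, and the crossed pairing 38.3% and 3.14%. For the pausing index these shares were 1.46% up and 0.0945% down with the block, and 32.3% and 0.921% with the crossed pairing.

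Under median-of-ratios and TMM scaling, Apoe turned to −0.0056 and −0.0066 in promoter-proximal windows, and the pausing index log2 fold changes turned to −0.37 (both) for Apoa2, −0.54 for Apob, −0.65 for Apoc1, −0.32 for Apoc3, −0.31 for Apoe and −0.0633 and −0.0621 for Apom. When a library was left out, promoter-proximal log2 fold changes ran from −0.53 to 0.32 for Apoc1 and, for Apom, from −0.53 to 0.21, and pausing index values from −0.28 to 0.51 for Apob and −0.36 to 0.37 for Apoc1. None of these was called. By the gene linked to an enhancer, 1 of the 10 genes was linked by closest gene, 1 within 50 kb and 8 by 4DGenome. At this depth the gene body changes of Apoa4 and Apom, with the fewest gene body reads of the 10 genes, had the largest standard errors (0.27 and 0.20).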
